A study of Mus musculus with 4 samples.

Results

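Imprinted genes were examined in mouse embryonic stem cells. A list of 44 genes of 18 imprinted domains was matched by symbol to deposited tables of 25170 genes. Of these, 43 were listed under their own symbol, and Nespas was listed under Gnasas1, a name that RefSeq gives for the same gene. In at least 1 library 38 members reached a value of 1, as did 13142 genes of the whole tables. The series holds 4 libraries, 1 per group. WT was the unedited E14 line. SO was of wild-type genotype and carried an SO treatment, which the series text describes as an inhibitor. Ldha_KO and Ldhb_KO were knockouts of the genes for the A and B subunits of lactate dehydrogenase. All were cultured on gelatin in medium with serum and LIF, and their polyadenylated RNA was sequenced. The sources used here do not give the dose and duration of SO, or whether each knockout line was a single clone. With 1 library per group no value has a replicate check, so every difference below compares libraries, not conditions, and carries no p-value.

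An imprinted gene is transcribed mainly from the copy inherited from the mother or mainly from the copy inherited from the father. The choice is set by DNA methylation laid down in the germline at a control region, which is then kept through the divisions of the early embryo by factors such as Zfp57, Trim28 and Dnmt1. Most such genes lie in clusters in which maternally and paternally expressed genes share a control region, and many act on growth, the placenta or metabolism. Cultured embryonic stem cells are known to vary in the methylation of these regions. The deposited tables do not separate alleles, so the parental allele given for each gene is the one known from the literature, and the values are totals over both copies.

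Promoter sequences are shown for members that lay at least 2-fold above WT in both knockouts and had an entry in the RefSeq table of GRCm38.p6, since these are the genes on which the results below turn. They are the 250 bases before the annotated start site, 5′ to 3′, and of genes with several entries the one with the most copies of the hexamer described next is shown. Capitals mark TGCCGC or its reverse complement GCGGCA, the hexamer that Zfp57 binds when its CpG is methylated. The windows were chr6:30737800-30738049 for Mest, chr10:13090582-13090831 for Plagl1, chr12:109540746-109540995 for Meg3 and chr12:109603695-109603944 for Rian, all on the plus strand.
Mest: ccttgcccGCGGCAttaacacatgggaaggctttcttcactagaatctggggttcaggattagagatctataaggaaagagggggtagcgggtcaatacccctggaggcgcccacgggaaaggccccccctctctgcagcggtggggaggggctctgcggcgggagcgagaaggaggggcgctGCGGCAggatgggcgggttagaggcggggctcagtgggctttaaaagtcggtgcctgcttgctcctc
Plagl1: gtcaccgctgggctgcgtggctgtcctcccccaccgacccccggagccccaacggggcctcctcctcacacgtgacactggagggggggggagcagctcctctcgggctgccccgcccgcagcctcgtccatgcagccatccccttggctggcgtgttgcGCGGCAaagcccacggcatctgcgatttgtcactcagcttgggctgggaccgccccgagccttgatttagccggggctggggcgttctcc
Meg3: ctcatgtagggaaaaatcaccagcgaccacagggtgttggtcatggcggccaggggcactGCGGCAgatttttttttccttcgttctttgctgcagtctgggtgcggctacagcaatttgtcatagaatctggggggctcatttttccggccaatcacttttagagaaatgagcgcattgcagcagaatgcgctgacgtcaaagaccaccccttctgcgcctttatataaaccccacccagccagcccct
Rian: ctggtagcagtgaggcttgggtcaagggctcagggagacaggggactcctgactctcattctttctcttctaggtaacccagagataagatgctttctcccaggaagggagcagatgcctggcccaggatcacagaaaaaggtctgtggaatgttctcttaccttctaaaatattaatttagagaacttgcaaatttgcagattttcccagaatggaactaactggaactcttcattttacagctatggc
The Mest window held 2 copies of the hexamer and 14 CpG, the Plagl1 window 1 copy and 19 CpG, and the Meg3 window 1 copy and 10 CpG. Another Mest entry, 250 bases before to 50 after a start site further upstream, held no copy and 8 CpG, and another Meg3 entry of that length held no copy and 1 CpG. The Rian window held neither the hexamer nor a CpG. Over windows of 300 bases, 250 before and 50 after the start site, 36 members had an entry and 12 of them (33.3%) had the hexamer on either strand in at least 1 entry. By entries the share was 24.1% of 54 for the members and 11.6% of 32851 for all promoters in the table, and several members have more than 1 entry. H19 and Sgce had no entry.

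The targeted genes followed the labels. Ldha was at 1774 in WT, 1711 with SO, 154 in Ldha_KO and 2237 in Ldhb_KO, and Ldhb was at 76.5, 139, 158 and 5.74 in the same order. Levels here and below are FPKM, fragments scaled by transcript length and library depth, as read from the values. The deposited values summed to between 471595 and 526316 per library. The sources used here do not give the depth in reads. All 11 stem cell markers lay at 106 or more in every library, Pou5f1 between 972 and 1330. The ratio of the value that 1 read is worth was judged for each pair of libraries. It used genes below 0.2 in both whose ratio lay close to the most common one, a choice that caps the spread. With the extremes at either end left out, the ratio spread over 0.0168% between WT and SO. Between either of these libraries and a knockout the spread was 0.432% to 0.621%, and between the knockouts 0.219%. The ratio was thus tightest between WT and SO and next between the knockouts. What made these spreads differ was not tested, and the sample titles name no batch. A difference of both knockouts from WT and SO cannot be told apart from a difference in how the libraries or values were made, should there be one.

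More members lay above WT in the knockouts than in SO. Calls were made where log2(FPKM + 1) differed by at least 1, which is 2-fold on that scale and understates the change of low genes. In Ldha_KO 7 of 38 members (18.4%) were higher than WT, against 2.65% of all 13142 genes, and 0 were lower, against 1.06%. In Ldhb_KO 6 of 38 (15.8%) were higher, against 3.36%, and 0 were lower, against 1.09%. The members were chosen with earlier results of these data known, so these shares are no independent test. In the further list of mostly imprinted genes given at the end, 1 of 30 (3.33%) was higher in Ldha_KO and 0 were lower. In Ldhb_KO 0 of those 30 were higher and 1 (3.33%) was lower. The split over all genes moved with scaling: with each library rescaled to the WT total, 488 genes were higher and 98 lower in Ldha_KO, in place of 348 and 139, and 629 and 99 in Ldhb_KO, in place of 441 and 143. The members then numbered 8 higher and 0 lower in Ldha_KO and 6 and 0 in Ldhb_KO. In SO 2 of 38 (5.26%) were higher, against 2.69%, and 1 (2.63%) was lower, against 0.472%. The median difference of the members was 0.25 in Ldha_KO, 0.25 in Ldhb_KO and -0.14 in SO, beside -0.03, -0.02 and -0.04 for all genes. The sign in SO turned with scaling: with each library rescaled to the WT total the members' median there was 0.01, beside 0.10 for all genes. H19, Meg3, Rian, Sgce, Mest and Plagl1 were called in both knockouts, and these comparisons share the WT library. Plagl1 passed the filter through the knockouts alone. With a filter of 5, which Plagl1 does not reach, 6 of 26 members were higher in Ldha_KO and 5 of 26 in Ldhb_KO. The share of all genes at that filter is not given here. Meg3 and Rian lie in the same domain and are counted as separate members.

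**Figure D1:**
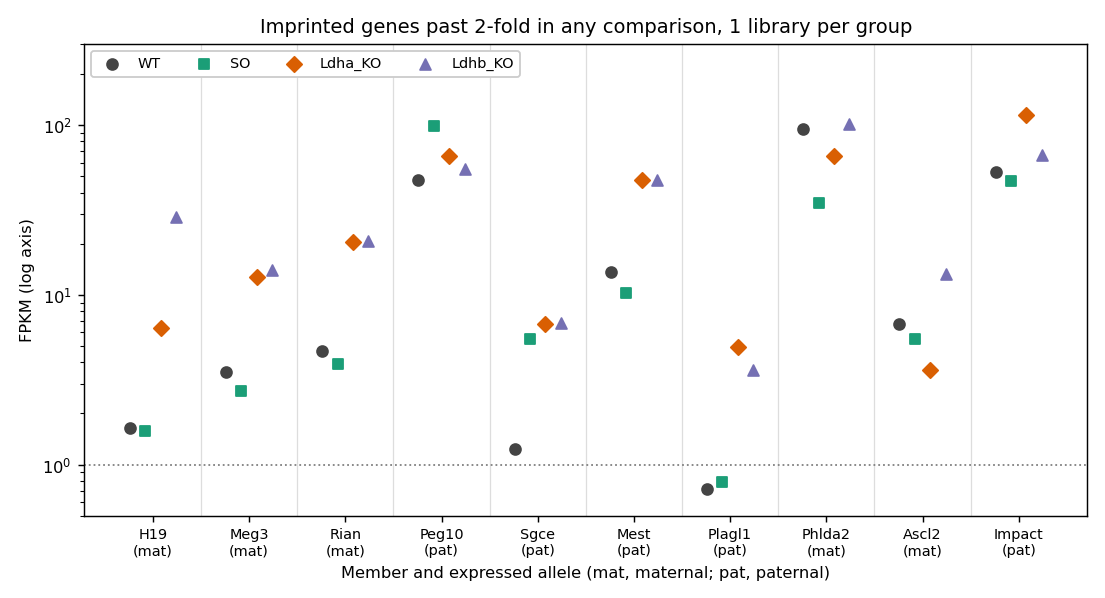
Levels in FPKM (log axis) of the 10 members past 2-fold in any of 4 comparisons, 1 point per library, with the expressed allele under each name. H19, Meg3, Rian, Mest and Plagl1 are near each other in WT and SO and higher in the knockouts, whereas Sgce is low in WT alone.

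Of the 38 members, 32 reached 1 in every library. Dlk1 and Usp29 reached it in Ldhb_KO alone, Gnasas1 in WT alone, Plagl1 in both knockouts, Peg12 in WT and Ldha_KO, and Nap1l5 in all but WT. Such members passed through the libraries where they were high. The 6 that did not pass were Airn, Rtl1, Zim1, Asb4, Kcnq1ot1 and Magel2. Among the 38 the levels ran from 0.713 to 195 in WT, with a median of 7.38, and the medians in SO, Ldha_KO and Ldhb_KO were 6.48, 12.7 and 13.1.

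H19 differed most. This long noncoding RNA is expressed from the maternal copy and shares enhancers with the growth factor gene Igf2, which is expressed from the paternal copy. H19 was at 1.65 in WT, 1.57 with SO, 6.37 in Ldha_KO and 28.7 in Ldhb_KO. WT and SO were close, Ldha_KO was 3.86-fold above WT and Ldhb_KO 17.4-fold. The difference in Ldhb_KO, 3.49 on the log2 scale, ranked 1 of 13142 genes, and that in Ldha_KO, 1.48, ranked 112. Igf2 was at 1.62, 1.63, 1.56 and 1.15, so the neighbour was not higher in either knockout. The ratio of H19 to Igf2 within a library, which does not depend on library scaling, was 1.01 in WT, 0.965 with SO, 4.08 in Ldha_KO and 24.9 in Ldhb_KO.

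Igf2r is the receptor that takes Igf2 to the lysosome. Where it is imprinted, it is expressed from the maternal copy and is silenced on the other by the antisense transcript Airn. Whether it was imprinted in these cells cannot be read from totals over both copies. Igf2r was at 13 in WT, 16.1 with SO, 22.3 in Ldha_KO and 19.8 in Ldhb_KO. Its differences of 0.29, 0.74 and 0.57 lay below the 2-fold rule. Airn was listed at 0 in all libraries but Ldha_KO, where it was at 0.0821, too low to compare.

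In the Dlk1-Meg3 domain the maternally expressed noncoding RNAs were higher in both knockouts and the paternally expressed genes stayed low. Meg3, Rian, which hosts snoRNAs, and Mirg, which hosts a miRNA cluster, are often described as parts of a single long transcription unit. Rian was at 4.65 in WT, 3.93 with SO, 20.5 in Ldha_KO and 20.6 in Ldhb_KO. The knockouts were thus nearly equal, 4.41-fold and 4.43-fold above WT, and their differences of 1.93 and 1.94 ranked 38 and 22 of all genes. Meg3 was at 3.51, 2.70, 12.8 and 14, with differences of 1.62 in Ldha_KO and 1.74 in Ldhb_KO. Mirg was at 2.15, 1.71, 4.19 and 4.85, and its differences of 0.72 and 0.89 did not reach the rule, although the second did with a pseudocount of 0.1. SO was the lowest library for all 3 RNAs, by 0.20 to 0.29 against WT.

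The unequal size along this domain showed within libraries. Meg3 was 1.63 times Mirg in WT and 1.57 times in SO, against 3.06 times in Ldha_KO and 2.89 times in Ldhb_KO. Rian was between 1.32 and 1.6 times Meg3 in all libraries. Dlk1, a membrane protein related to Notch ligands, was at 0.831 in WT, 0.295 with SO, 0.733 in Ldha_KO and 1.17 in Ldhb_KO. Rtl1, a placental gene derived from a retrotransposon, did not exceed 0.0881 in any library. The summed maternal RNAs over Dlk1 and Rtl1 gave ratios of 11.2, 25.8, 45.6 and 31.6. The higher ratio in SO than in WT came with a lower Dlk1, not with higher Meg3, Rian or Mirg. All 58 miRNA genes between Dlk1 and Dio3 were listed at 0 in every library, and polyadenylated libraries hold few short RNAs.

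**Figure D2:**
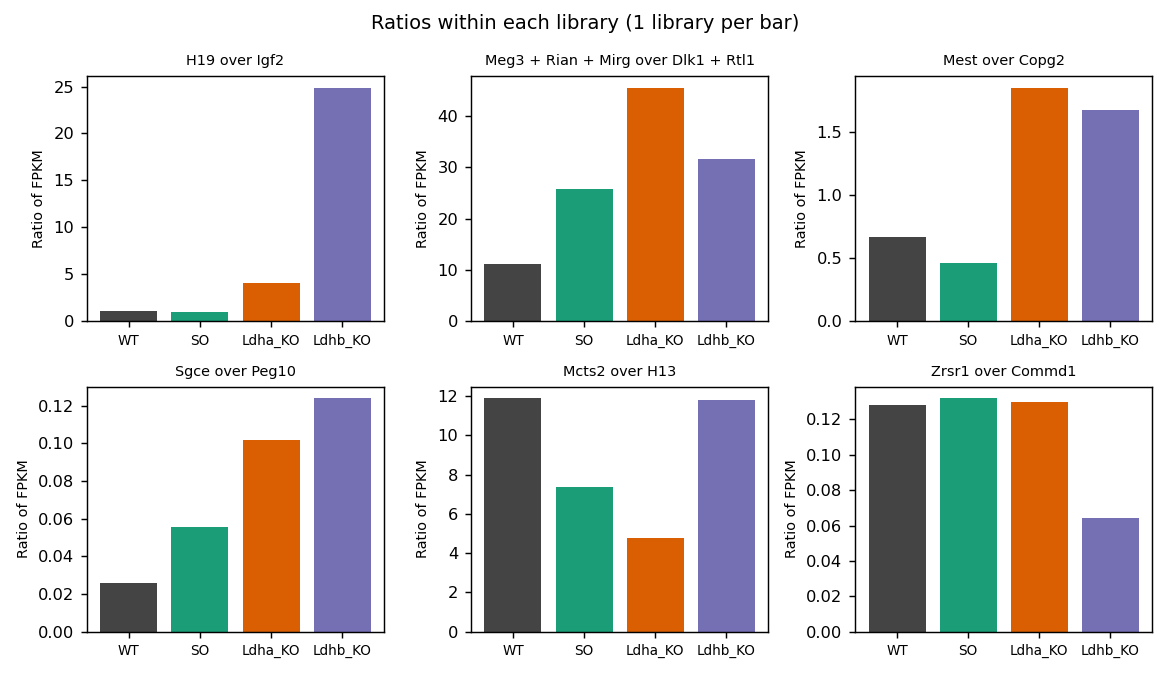
Ratios of FPKM between genes of a domain within each library, 1 bar per library, each panel with its own axis from 0. H19 over Igf2 is 24.9 in Ldhb_KO against 1.01 in WT, Mest over Copg2 is highest in the knockouts, and Zrsr1 over Commd1 stands lower in Ldhb_KO alone.

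Mest and Plagl1, both expressed from the paternal copy, were also higher in the knockouts. Mest encodes a protein of the hydrolase family linked to fat cell and placental growth. It was at 13.6 in WT, 10.3 with SO, 47.1 in Ldha_KO and 47.2 in Ldhb_KO, 3.48-fold above WT in each knockout and ranked 67 and 41. Copg2, a coat protein gene on the other strand that overlaps Mest, was at 20.4, 22.2, 25.5 and 28.2, with differences of 0.31 and 0.45 in the knockouts. Mest was 0.663 times Copg2 in WT and 0.463 times in SO, against 1.85 and 1.67 times in Ldha_KO and Ldhb_KO. The sources used here do not give the strand of the reads, so reads of this overlap could be counted for either gene.

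Plagl1, a zinc finger transcription factor that restrains growth, was at 0.713 in WT, 0.793 with SO, 4.93 in Ldha_KO and 3.61 in Ldhb_KO. WT and SO lay below 1, and the knockouts were 6.91-fold and 5.06-fold above WT. The differences were 1.79 and 1.43, ranked 56 and 111. Even so, its levels in the knockouts lay below the medians of the members there, 12.7 and 13.1. As shown above, the Mest and Plagl1 windows both hold the Zfp57 hexamer, which is a description of sequence and not a measure of binding.

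In the Peg10-Sgce domain all 3 compared libraries stood above WT for Sgce. Sgce, the epsilon subunit of the sarcoglycan membrane complex, was at 1.24 in WT, 5.51 with SO, 6.73 in Ldha_KO and 6.79 in Ldhb_KO. WT was the library that stood apart, with the others 4.44-fold, 5.42-fold and 5.47-fold above it. Peg10, a retrotransposon-derived gene needed for the placenta that starts next to Sgce on the other strand, was at 47.6, 99, 65.9 and 54.7. It was called higher in SO alone (difference 1.04), with 0.46 and 0.20 in Ldha_KO and Ldhb_KO, and whether SO differs from the knockouts in this was not tested. Sgce was 0.0261 times Peg10 in WT and 0.124 times in Ldhb_KO, so these paternally expressed neighbours did not keep 1 ratio. Ppp1r9a, which encodes neurabin, was at 3.08, 3.65, 2.56 and 3.38, and Asb4 did not exceed 0.116.

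The Kcnq1ot1 domain gave the only member called lower than WT. Its maternally expressed genes are silenced on the paternal copy by the noncoding RNA Kcnq1ot1, which lay between 0.163 and 0.287. Phlda2, which restrains placental growth, was at 94.2 in WT, 34.6 with SO, 65.8 in Ldha_KO and 102 in Ldhb_KO. SO was 2.72-fold below WT, a difference of -1.42 that ranked 16 from the lowest of 13142 genes. Cdkn1c, an inhibitor of cyclin-dependent kinases, was at 10.7, 5.68, 8.53 and 13.1, in the same order of libraries as Phlda2, and its difference of -0.80 in SO did not reach the rule. The ratio of Phlda2 to Cdkn1c ran only from 6.10 to 8.84.

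Ascl2, a transcription factor of the trophoblast, was at 6.77 in WT, 5.52 with SO, 3.60 in Ldha_KO and 13.2 in Ldhb_KO. It was not called against WT, and the knockouts lay on either side of WT. Slc22a18, a transporter gene, was at 2.07, 2.45, 2.46 and 4.11, with its highest level in Ldhb_KO (difference 0.74). Cd81, a tetraspanin imprinted in placenta, was at 139, 238, 187 and 153, and Tssc4, a spliceosome factor, at 25.2, 22.2, 23.8 and 17.0. The genes of this domain thus did not move together, since Phlda2 was lowest in SO and Cd81 was highest there.

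**Figure D3:**
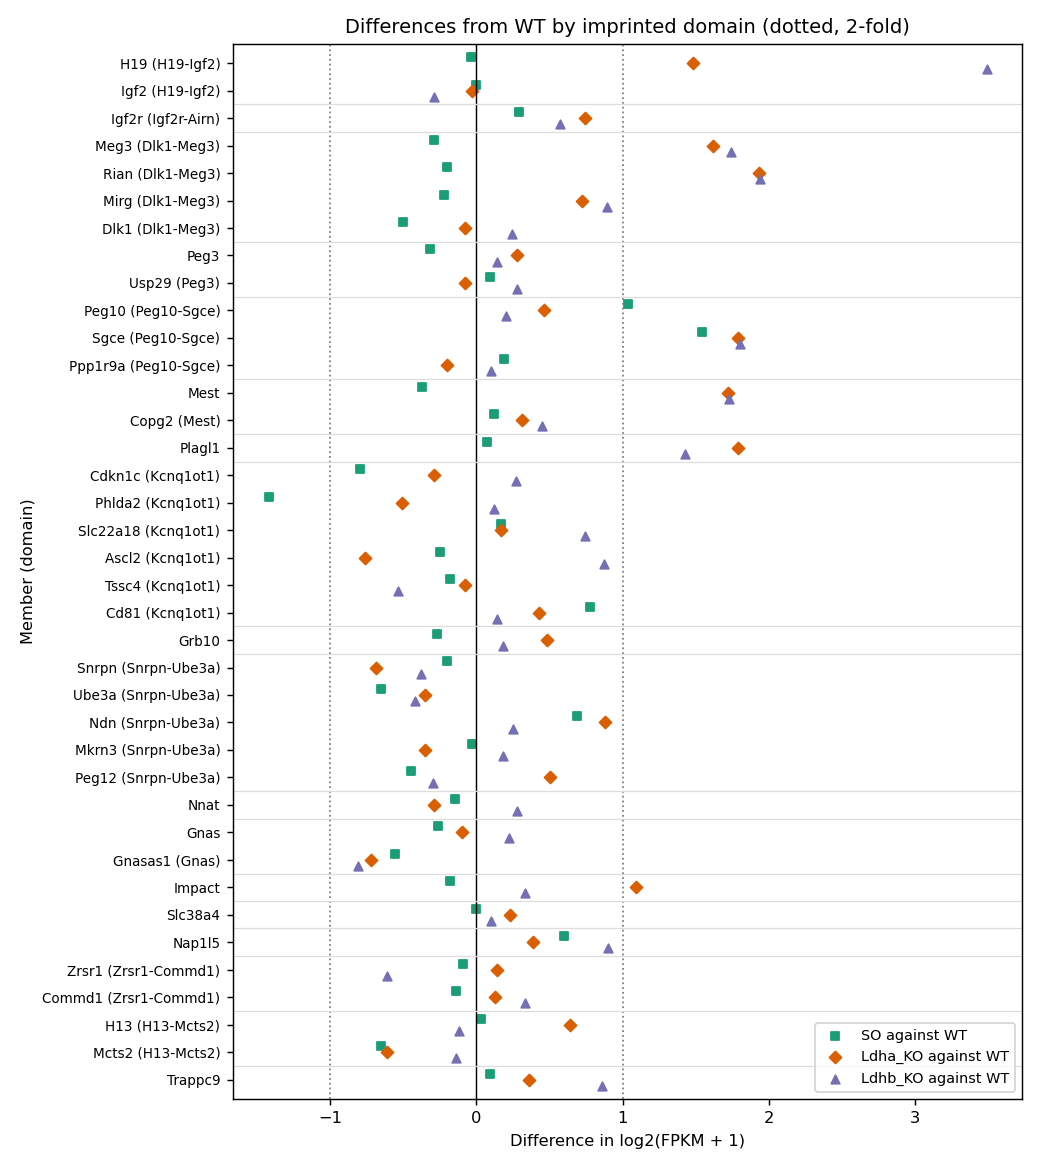
Differences from WT in log2(FPKM + 1) of the 38 members, grouped by domain, 1 point per library compared, with dotted lines at 2-fold. The points past 2-fold are those of H19, Meg3, Rian, Peg10, Sgce, Mest, Plagl1, Impact and Phlda2.

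Genes of the Snrpn-Ube3a domain, whose human counterpart is affected in Prader-Willi and Angelman syndromes, were not called in any comparison. Snrpn, a spliceosomal protein gene and the member with the highest level in WT, was at 195 in WT, 170 with SO, 120 in Ldha_KO and 150 in Ldhb_KO. Ube3a, a ubiquitin ligase imprinted in neurons, was at 22.5, 13.9, 17.4 and 16.5, with WT the highest. Ndn, which encodes necdin of the MAGE family, was at 7.06, 12.0, 13.8 and 8.59, and its difference of 0.88 in Ldha_KO was 1.01 once each library was rescaled to the WT total. Mkrn3, Peg12 and Magel2 ranged from 2.82 to 4.53, from 0.596 to 2.10 and from 0.252 to 0.579.

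Impact, an inhibitor of the kinase Gcn2 that senses amino acid starvation, was called in Ldha_KO alone. It was at 53.0 in WT, 46.6 with SO, 114 in Ldha_KO and 67.0 in Ldhb_KO, and the difference in Ldha_KO was 1.09. Between the knockouts its difference of 0.76 did not reach the rule. Slc38a4, an amino acid transporter gene, had the smallest spread of all members, from 86.7 to 102. Grb10, an adaptor that restrains insulin signalling, ran from 1.95 to 3.95, Peg3, a zinc finger gene, from 6.06 to 9.70, and its neighbour Usp29, a ubiquitin protease gene, from 0.642 to 1.10.

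Several paternally expressed members are intronless retrogenes inside an intron of a host gene. Mcts2 was at 91.8 in WT, 58.0 with SO, 59.6 in Ldha_KO and 83.0 in Ldhb_KO, and its host H13, a signal peptide peptidase gene, at 7.69, 7.88, 12.5 and 7.03. Their ratio was 11.9 in WT, 7.36 with SO, 4.76 in Ldha_KO and 11.8 in Ldhb_KO, so WT and Ldhb_KO were alike and Ldha_KO lowest. Zrsr1 was 0.128 times its host Commd1 in WT, 0.132 with SO, 0.130 in Ldha_KO and 0.0644 in Ldhb_KO, where Zrsr1 was at 8.48 against 13.4 in WT. Nap1l5 was at 0.955, 1.96, 1.55 and 2.64, the highest in Ldhb_KO at a difference of 0.90. Its host Herc3 was at 3.85, 6, 7.04 and 6.68, lowest in WT as well. Nap1l5 was 0.248 times Herc3 in WT, 0.326 with SO, 0.221 in Ldha_KO and 0.395 in Ldhb_KO. None of these members was called at the pseudocount of 1, Nap1l5 was called higher in Ldhb_KO at 0.1, and reads from unspliced host transcripts can fall in such genes.

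Nnat, a small membrane protein gene in an intron of Blcap, ran from 32 to 48.0. Gnas, the gene of the stimulatory G protein alpha subunit, from which differently imprinted transcripts arise, ran from 95.6 to 134. Its antisense RNA Gnasas1 (Nespas) was at 1.94 in WT, just under 1 with SO, 0.788 in Ldha_KO and 0.674 in Ldhb_KO, with WT the highest and no call at these low levels. Trappc9, a gene of the TRAPP trafficking complex, was at 6.43, 6.90, 8.52 and 12.4. Over the 28 members called in no comparison, the highest library was 1.17 to 3.95 times the lowest, with a median of 1.71.

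Members called higher were found in both parental classes. Of 18 maternally expressed members that passed, 3 (16.7%) were higher in Ldha_KO (H19, Meg3 and Rian) and the same 3 in Ldhb_KO, beside 2.65% and 3.36% of all genes, with medians of 0.33 and 0.39. Meg3 and Rian are counted separately although they are often described as parts of a single transcription unit. Of 19 paternally expressed members, 4 (21.1%) were higher in Ldha_KO (Sgce, Mest, Plagl1 and Impact) and 3 (15.8%) in Ldhb_KO, with medians of 0.23 and 0.20. Of these, Plagl1 passed the filter through the knockouts alone. In SO the maternal class had 0 higher and 1 lower with a median of -0.16, and the paternal class 2 higher and 0 lower with -0.09 (-0.01 and 0.06 after rescaling to the WT total), and of all genes 2.69% were higher and 0.472% lower there. The classes overlapped over most of their range. By product, 5 noncoding members passed, of which 5 lay below WT in SO (4 after that rescaling), beside 7131 of 13142 genes (4880 after it). Of the noncoding members 3 were called in each knockout.

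**Figure D4:**
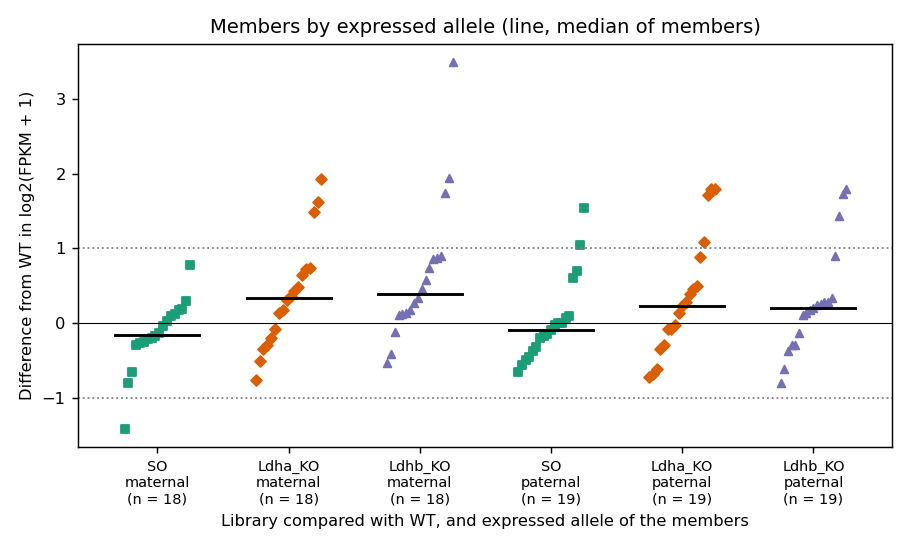
Differences from WT in log2(FPKM + 1) of 18 maternally and 19 paternally expressed members, 1 point per member, sorted within a column, with a line at the median. In each knockout the classes share most of their range, and the highest point is H19 in Ldhb_KO at 3.49.

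Between the knockouts, 0 of 38 members were higher in Ldha_KO, against 1.67% of all genes, and 2 (5.26%) were lower, against 1.54%. These were H19, 4.51-fold lower in Ldha_KO than in Ldhb_KO and ranked 12 from the lowest, and Ascl2, 3.66-fold lower. The median over members was -0.07, beside -0.02 for all genes. Rian, Sgce and Mest differed by at most 0.01 between the knockouts, and Meg3 by 0.12.

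Most genes of a broad list of factors linked to imprints lay below WT in the other libraries, by less than 2-fold. The list also holds Tet1, Tet2, Tet3, Ctcfl and the stem cell marker Zfp42, so not all of its genes keep or set imprints. Of 27 such genes listed, 26 passed the filter, and 20 lay below WT in Ldhb_KO, 22 in Ldha_KO and 22 in SO. Of all 13142 genes, 6874, 6987 and 7131 lay below WT in the same order. The factors' medians were -0.31, -0.29 and -0.23 beside -0.02, -0.03 and -0.04 for all genes. With each library rescaled to the WT total, 19, 17 and 18 factors lay below WT, beside 5487, 5195 and 4880 of all genes. The factors' medians were then -0.20, -0.15 and -0.07 beside 0.08, 0.09 and 0.10. In SO 0 were called, in Ldha_KO 1 was lower (3.85%, against 1.06% of all genes) and in Ldhb_KO 1 was higher (3.85%, against 3.36%), shares that rest on a single gene. Both calls were Dppa3, which protects methylation in the egg and early embryo, at 4.03 in WT, 4.24 with SO, 0.952 in Ldha_KO and 10.3 in Ldhb_KO. The others described here were chosen for their roles after their values were seen. Zfp57 was at 373, 411, 270 and 238, and its cofactor Trim28 at 1015, 723, 724 and 684. Dnmt1, which copies methylation after replication, was at 77.2, 75.5, 69.2 and 78.6. The de novo methyltransferase Dnmt3a was at 42.8, 26.5, 26.2 and 24.8, with WT the highest. Dnmt3b was at 69.2, 44, 37.8 and 57.7, and Dnmt3l at 405, 436, 303 and 521, with Ldhb_KO the highest for Dnmt3l.

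Markers of other cell types were examined because H19, Igf2, Mest and Dlk1 are abundant in fetal and extraembryonic tissue. The 10 fibroblast markers summed to 42.1 to 52.3 per library, mostly Thy1, and Dcn and Lum were listed at 0 in all of them. Col1a1 was at 1.2 in WT, 1.69 with SO, 1.39 in Ldha_KO and 1.87 in Ldhb_KO. Pdgfrb alone of the fibroblast markers was called, at 0.949 in WT, 3.35 with SO, 2.80 in Ldha_KO and 3.63 in Ldhb_KO, past the rule in SO and Ldhb_KO. Of 10 trophoblast markers, which include the member Ascl2, 5 passed, and Tpbpa and Prl3d1 were listed at 0 in every library. The sums were 15.4 in WT, 21.3 with SO, 14.8 in Ldha_KO and 22.5 in Ldhb_KO. Of these sums Ascl2 made up 6.77, 5.52, 3.60 and 13.2. Among the other passing markers, Eomes was at 4.84, 9.22, 6.77 and 3.77 and Hand1 at 0.862, 2.12, 1.09 and 0.69. Krt7 was at 0.28, 1.02, 0.847 and 1.49 and Tfap2a at 1.71, 2.26, 1.16 and 2.65. None of these markers was called against WT. Endoderm markers summed to 4.27, 6.67, 6.20 and 3.95 and mesoderm markers to 1.69, 2.32, 1.67 and 3.30. Neuroectoderm markers summed to 166, 99.6, 124 and 97.5, mostly Tubb3. Germ cell markers stood higher in the knockouts, with sums over 5 genes of 70.3 in WT, 83.6 with SO, 167 in Ldha_KO and 119 in Ldhb_KO. Of the 5, 1 (20%) was called higher in SO, 2 (40%) in Ldha_KO and 1 (20%) in Ldhb_KO. Of all genes 2.69%, 2.65% and 3.36% were called higher in the same order. Stra8, which acts at entry into meiosis, was at 2.71, 9.41, 31.0 and 14.8 and was called in all of these comparisons, and Dazl, an RNA-binding protein gene of germ cells, was at 13, 24, 51.1 and 16.5 and was called in Ldha_KO. Sycp3, a gene of the meiotic chromosome axis, was at 23.5, 17.7, 47.0 and 40.8, and its differences of 0.97 and 0.77 in the knockouts lay below the rule. In Ldha_KO it passed once each library was rescaled to the WT total, which made 3 calls of 5 there, beside 488 of 13142 genes. Ddx4 was at 12.3, 11.6, 16.1 and 17.9 and Mael at 18.7, 20.8, 21.8 and 29.4. Their differences in Ldha_KO were only 0.36 and 0.21, so the sums were carried mostly by the other markers. The part of these cell type markers in the differences of the imprinted genes was not tested. In bulk RNA a larger share of cells with a transcript and more transcript per cell cannot be told apart.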

How the data were processed

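Polyadenylated RNA of 4 cultures of mouse embryonic stem cells was sequenced, 1 library per group, grouped by title. The authors deposited 1 value per gene symbol, taken here as FPKM because the values are fractional, have unequal library totals and rise in steps whose size depends on the gene. Whether they are RPKM or FPKM could not be decided. Per the submitters' processing notes, the reference was mm9, and edgeR 3.26.8, HTSeq 0.11.2, SAMtools 1.9 and Bowtie2 2.3.4.3 were used in roles not stated. The sources used here do not give the gene annotation.

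Computed here, with Python 3.11.15, numpy 2.4.6 and pandas 2.3.3, were differences of log2(FPKM + 1) over genes at 1 or more in at least 1 library, called at 1. Ranks are over the 13142 such genes. The call rule was tested on simulated data. The members and lists were chosen with earlier results of these data known. Values in every library are given for members called in any comparison and for those of their domains that passed the filter. Of 44 members, 17 overlap another listed gene by GENCODE M21 spans, small RNA genes aside. That annotation and RefSeq are on GRCm38, so only names, overlaps and promoter sequences were taken from them. How many reads lie behind a value could not be settled, since only 13 of 38 members had exactly 1 whole-number ratio up to 60 matching WT and SO within 0.03%, and any multiple of it is possible as well. The 7 alternatives are given in the closing section.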

Additional observations from a re-analysis of the deposited data

How the results depend on the processing

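Each count and median was recomputed under 7 alternatives in 4 comparisons, 84 values in all. Of these, 75 stayed within 1.5 times the count or 0.1 of the median, 8 moved further and 1 changed sign. With a pseudocount of 0.1, members lower than WT numbered 2 in SO, where Dlk1 joined Phlda2, and 1 in each knockout, Gnasas1. It also raised the members higher in Ldhb_KO from 6 to 8, adding Mirg and Nap1l5. With the same pseudocount 1 member, Peg12, was higher in Ldha_KO than in Ldhb_KO. The share of all genes called at that pseudocount is not given here, so the added calls are no result about the members. Without members imprinted in few tissues, 1 was lower in that comparison, H19. The median in Ldha_KO was 0.39 with each library rescaled to the WT total, 0.14 without the filter and 0.46 without overlapping or nested members. The median in SO turned from -0.14 to 0.01 under that same rescaling. It shifted a gene's difference by a median of 0.11 in Ldhb_KO, 0.13 in Ldha_KO and 0.15 in SO. The median of all genes in SO went from -0.04 to 0.10, so the members' median stayed below it. The 10 members called in any comparison kept each call under the pseudocount of 0.1 and both scalings, in 120 values. Plagl1 drops out of both knockout counts with a filter of 5, and Mest when overlapping members are left out. No paired analysis was possible because each group has 1 library. For the same reason no library could be left out.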

Other observations

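A further list of 54 symbols, most of them of genes reported as imprinted in at least 1 tissue, was compared in the same way. Some symbols name the same gene, such as Ago2 and Eif2c2. They matched 50 genes that are no members, and 30 of these passed the filter. Against WT, 0 were called in SO, 1 was higher in Ldha_KO (3.33%, against 2.65% of all genes) and 1 was lower in Ldhb_KO (3.33%, against 1.09%), so these counts stand on single genes. The medians were -0.03, -0.02 and 0.01, beside -0.04, -0.03 and -0.02 for all genes. The gene higher in Ldha_KO was Dcaf12l1, whose imprinting was not taken as known (6.16 in WT, 8.52 with SO, 16.6 in Ldha_KO and 6.25 in Ldhb_KO). The gene lower in Ldhb_KO was Zdbf2, a paternally expressed zinc finger gene, at 13.5 in WT, 10.7 with SO, 12.9 in Ldha_KO and 5.59 in Ldhb_KO. Between the knockouts, 4 of the 30 (13.3%) were higher in Ldha_KO, against 1.67% of all genes, and 0 were lower, against 1.54%. They were Dcaf12l1, Zdbf2, Jade1 (148 against 54.5) and Dio3, a thyroid hormone deiodinase gene at the far end of the Dlk1-Meg3 domain (2.51 against 0.439). Dio3 was at 1.25 in WT and 1.41 in SO, so it was highest in Ldha_KO and lowest in Ldhb_KO. Meg3 was at 12.8 in Ldha_KO and 14 in Ldhb_KO. Casd1, beside Sgce, ran from 2.40 to 2.66, Klhdc10, near Mest, from 22 to 26.7, and Nap1l4, near Phlda2, from 78.8 to 98.1.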
